A study of Arabidopsis thaliana with 3 samples.

Results

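The non-A-type cytochromes P450 are the plant P450 families outside the large A-type clan. They were taken here as all genes whose symbol reads CYP, a family number out of 28 listed, 1 letter and a last number, on a probe set of the ATH1 array that the platform annotation assigns to exactly 1 gene. The reference gene table holds 79 genes with such a symbol. Of these, 1 had a probe set of its own in the annotation used here, CYP51G2 (AT2G17330), which the reference table lists as a transcribed pseudogene. The other 78 were not analysed here, so the values below are those of CYP51G2 and not of the families as a whole. Across the whole annotation, 13356 genes had such a probe set. No further gene came in through a synonym or from a probe set with several genes.

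The study measured total RNA of Arabidopsis thaliana Col-0 on 3 Affymetrix ATH1 arrays, where each gene is read by several short probes whose brightness is merged into a probe set signal. A pair of arrays carried pollen with its tubes after 6 h of germination at 25°C, on agarose medium containing 13.5% sucrose and 10 mM CaCl2. About 80% of the grains had germinated per the labels. The third array carried Col-0 seedlings with their roots, raised on sugar-containing agar, and no mutation or transgene was involved in either group. The seedling label gives days of 18 h light and 6 h dark, where the design text gives 16 h and 8 h. This difference was not settled. The labels leave unsaid whether separate plants gave the pollen of each array. The p-values therefore rest on the spread of 2 arrays that may be technical repeats, and the seedling group has 1 array. The spread of each probe set was moderated towards a trend over all tested probe sets.

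Cytochromes P450 are heme enzymes of the endoplasmic reticulum or plastid that put an oxygen atom into small molecules. The A-type clan is known mostly for secondary metabolism, and the non-A-type families for steps that many plants share, such as the synthesis and breakdown of sterols, brassinosteroids, gibberellins, abscisic acid, jasmonate and carotenoids, and the oxidation of fatty acids for cutin, suberin and the pollen wall. The CYP51 family removes a methyl group from a sterol precursor, a step shared by plants, fungi and animals. In Arabidopsis the working enzyme of that step is CYP51G1, the paralogue of CYP51G2. CYP51G1 was not analysed here, and whether its transcript binds to the CYP51G2 probe set was not tested.

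Pollen and green tissue markers went with the labels, and root hair markers of the seedlings did not under trimmed mean scaling. All 5 measured pollen markers of a list of 12 were called higher in germinating pollen, with summed signals of 48214 and 48950 on the pollen arrays against 45.9 on the seedling array. All 7 markers of green tissue were called lower, with sums of 174 and 199 in pollen against 39464 in seedlings. Of 5 tapetum and anther wall genes 1 was measured, AMS, with 8.87 and 49.0 in pollen against 1.16 in seedlings, and it was not tested. Of the flower organ list (petals, stigma and others) 4 genes were measured, and 1 of them, NGA1, was called lower in pollen. The other 3 were not called and were brighter in pollen, NGA2 with 107 and 102 against 56.2 in seedlings, SPT with 106 and 131 against 39.6, and RBE with 91.0 and 54.8 against 11.3. Under spike scaling NGA2 and SPT turned to lower (log2 differences -1.25 and -0.64), and RBE stayed higher (0.25). NGA2 was then called, as were 66.6% of all tested probe sets in that direction. The list's summed signal was 310 and 290 in pollen against 195 in seedlings. The part of other flower cells in the CYP51G2 signal was not tested. Of the root hair markers, EXPA18 read 113 and 56.4 in pollen against 23.6 in seedlings and was not called. Under spike scaling EXPA18 turned to lower, with a log2 difference of -0.44, and was not called either. EXPA7 was called higher in pollen, with 121 and 101 in pollen against 22.0 in seedlings, but not when arrays were scaled by the hybridisation spikes (log2 difference 0.01).

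The CYP51G2 probe set gave a dim signal in germinating pollen and a dimmer one in seedlings, and the difference did not pass the test. Its MAS5 signal was 64.1 and 55.8 on the pollen arrays (59.95 ± 5.81, SD, n = 2), against 14.3 on the seedling array. Both pollen signals lay above the seedling signal, and the pollen arrays differed from each other by a ratio of 1.15. The floor, which is the pooled median signal of all arrays (42.3), lay between the groups, since the pollen signals were 1.51 and 1.32 times the floor and the seedling signal 0.34 times. In pollen CYP51G2 was brighter than 65% and 58.6% of the 22746 probe sets that are not array controls, and in seedlings brighter than 27.2% of them.

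On the scale of log2(signal + 14.7), where the offset shrinks the differences of dim genes, the difference of germinating pollen minus seedlings was 1.36 with an SE of 0.46. The SD of the pollen arrays on that scale was 0.11, and the SE also draws on the trend over all tested probe sets. The 95% interval of the difference ran between 0.10 and 2.62 before any adjustment. With limma, fitted to 14812 probe sets over all 3 arrays and adjusted by Benjamini-Hochberg, the adjusted p was 0.0682 (unadjusted p = 0.0399), above the threshold of 0.05. Thus 0 of 1 member was called higher and 0 of 1 lower, where limma called 22.1% of all tested probe sets higher in germinating pollen and 31.7% lower. CYP51G2 also missed the rule of a 10-fold difference on both pollen arrays, which 4.24% of all probe sets met as higher and 4.95% as lower. The median difference of all tested probe sets was -0.61.

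**Figure D1:**
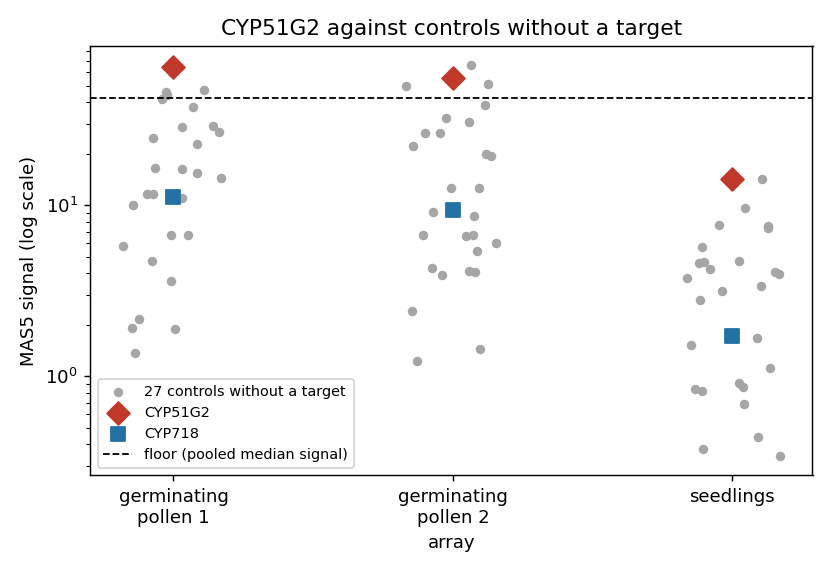
MAS5 signals on a log scale for CYP51G2 (diamonds), CYP718 (squares) and the 27 controls without a target (grey points, spread sideways for sight) on both germinating pollen arrays and the seedling array, with the floor of 42.3 as a dashed line. CYP51G2 sits at the top of the control points on every array, and 1 control lies above it on pollen array 2 and 1 on the seedling array.

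The CYP51G2 signals were close to those of the array's controls without a target, 27 probe sets for bacterial genes. On pollen array 1 the controls reached 47.1 and 0 of them were brighter than CYP51G2. On pollen array 2 they reached 65.7 and 1 was brighter, and on the seedling array they reached 14.3 and 1 was brighter. CYP51G2 therefore stood above every control on 1 of the 3 arrays. The controls were themselves brighter in pollen, with medians of 14.4 and 9.11 on the pollen arrays against 3.39 on the seedling array, and 25 of the 27 were brighter in pollen on each of its arrays. The seedling signal of CYP51G2 was not above the controls, so its ratio to the pollen signal is not read as a fold. Under trimmed mean scaling the mean pollen signal was 1.42 times the floor. On the log2 scale with the offset, the median control difference was 0.76 and the highest was 1.34, just under the 1.36 of CYP51G2. By the plain ratio of mean pollen signal to seedling signal, without the offset, 18 of the 27 controls exceeded CYP51G2. The CYP51G2 difference was therefore above that of every control only with the offset, which shrinks the differences of dimmer probe sets more. The part of this background in the CYP51G2 difference was not tested.

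The direction of the CYP51G2 difference depended on how the arrays were brought to a common level. The hybridisation spikes, 9 probe sets for RNA that is meant to be added in equal amount to each array, were 5.25 and 4.69 times brighter (geometric means) on pollen arrays 1 and 2 than in the seedling hybridisation. Scaled by them, CYP51G2 read 35.5 and 34.6 in pollen against 41.5 in seedlings, a log2 difference of -0.18 (limma adjusted p = 0.712), where the median of all tested probe sets was -2.27. Scaled by the 75th percentile, it read 74.7 and 62.5 in pollen against 10.9 in seedlings. It was then called higher, with a log2 difference of 1.70 (limma adjusted p = 0.0386), as were 30.1% of all tested probe sets at that scaling. CYP51G2 entered the test there and under trimmed mean scaling through its pollen signals alone, so the direction follows in part from the filter. The same limit holds under spike scaling in the other direction. Both pollen signals were there under that setting's floor of 35.9, and CYP51G2 entered through its seedling signal alone. With trimmed mean scaling and no filter the log2 difference stayed at 1.36. Its SE was then 0.60, against 0.46 with the filter, and the adjusted p from limma was 0.186.

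**Figure D2:**
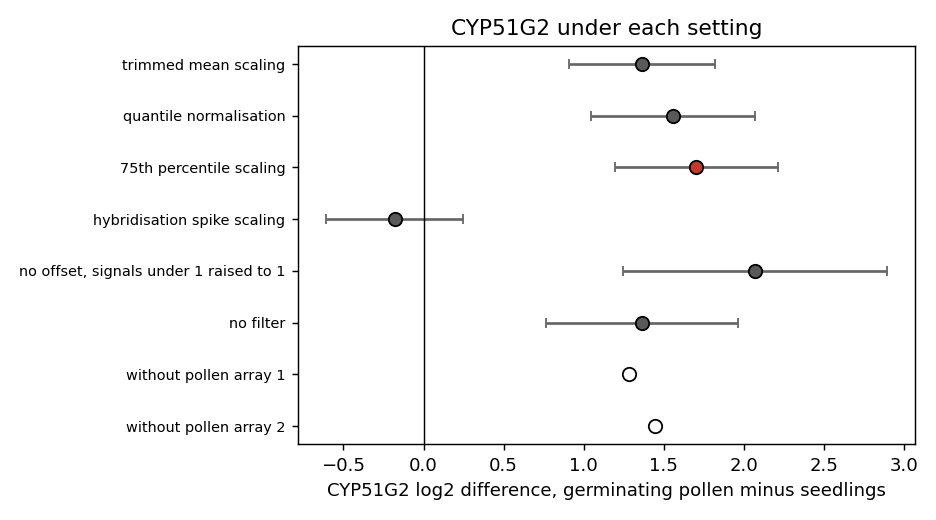
The log2 difference of CYP51G2, germinating pollen minus seedlings, under each setting, with bars of 1 SE from limma. The red point, 1.70 under 75th percentile scaling, has an adjusted p under 0.05, the grey points do not, and the open points, each from 1 pollen array, have no test; the point under spike scaling, -0.18, is the only one below 0.

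CYP718 belongs to a listed family but its symbol has no letter and last number, so that it falls outside the rule. Its signals were 11.1 and 9.40 in pollen against 1.73 in seedlings, all under the floor, and it was not tested. Under trimmed mean scaling CYP718 was brighter on both pollen arrays, as were CYP51G2 and 25 of the 27 controls. Its level was within the range of the controls on all 3 arrays. Under spike scaling its log2 difference was 0.08.

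Among P450 genes, 21 of the A-type clan were measured, out of 146 in the reference table. All of the 21 except CYP78A9, CYP79A2 and CYP84A4 belong to the CYP71B subfamily, so their values do not describe the clan as a whole. Of the 21, 8 were tested with limma, all of them CYP71B genes. Of those 8, 0 were called higher and 2 were called lower in pollen (1 and 4 at an unadjusted p under 0.05). Over all 14812 tested probe sets, 22.1% were called higher and 31.7% lower, and 9076 had an unadjusted p under 0.05. Their log2 differences lay between -2.71 and 1.80 with a median of -0.56, and 2 of the 21 exceeded the 1.36 of CYP51G2. CYP71B27 alone of the 21 passed the floor on each pollen array, with 57.3 and 85.2 in pollen against 15.6 in seedlings, and it had a higher pollen mean than CYP51G2. It did not pass either, with a log2 difference of 1.48 (limma adjusted p = 0.0768). CYP71B27 also entered the test through its pollen signals alone, so its direction follows in part from the filter. Whether CYP51G2 differs from these genes was not tested.

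**Figure D3:**
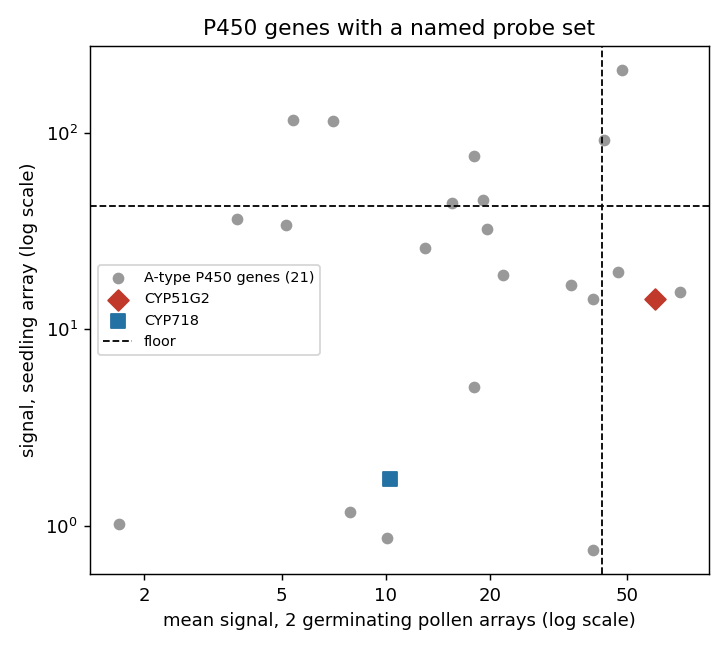
Mean signal of the germinating pollen arrays against the signal of the seedling array, both on log scales, for 21 A-type P450 genes (grey), CYP51G2 (diamond) and CYP718 (square), with the floor of 42.3 as dashed lines. CYP51G2 lies right of the floor for pollen and below it for seedlings, next to CYP71B27.

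Few other genes of the pathways in which non-A-type P450s act were measured. Of 185 names in 11 lists, 5 could be read from a single-gene probe set, in 4 of the lists. The lists for abscisic acid, brassinosteroids, cytokinins, gibberellins, strigolactones, sporopollenin, and P450 reductases with cytochrome b5 had 0 measured genes. A name that could not be matched to a single gene counts here as not measured.

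In the sterol list, 1 of 20 names was measured and 0 passed. This was CPI1, the cyclopropylsterol isomerase that makes the substrate of the CYP51 step. CPI1 read 17.6 and 41.1 in pollen against 154 in seedlings. Both pollen signals were under the floor and below the seedling signal, and the log2 difference was -1.99 (SE 0.60, limma adjusted p = 0.0537, unadjusted p = 0.0295). CPI1 passed under spike scaling, with a difference of -3.96 (limma adjusted p = 0.00584), where 66.6% of all tested probe sets were called lower. It also passed with the floor at the highest control (limma adjusted p = 0.0452). CPI1 did not pass under quantile normalisation, under 75th percentile scaling, without the offset or without the filter. With either floor at trimmed mean scaling it entered the test through its seedling signal alone, so its direction follows in part from the filter.

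In the jasmonate and oxylipin list, 2 of 18 names were measured, and 1 was called higher and 1 lower. JMT, the methyltransferase that turns jasmonic acid into methyl jasmonate, had 1596 and 1412 in pollen against 35.9 in seedlings. Its pollen signals were far above every control, and it was at least 35.5-fold higher against the floor (log2 difference 4.90, SE 0.15, limma adjusted p = 0.000124). That bound holds for trimmed mean scaling, and under spike scaling JMT was still called higher with a smaller log2 difference of 2.93. OPCL1, a coenzyme A ligase on the way to jasmonic acid, had 28.0 and 14.9 in pollen against 113 in seedlings. It was called lower, and the bound against the floor was at least 2.68-fold (log2 difference -1.85, limma adjusted p = 0.0415), and the call was lost under quantile normalisation, under 75th percentile scaling, without the offset and without the filter.

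In the carotenoid list, 1 of 15 names was measured and it was lower. LYC, the lycopene cyclase of the carotenoid pathway, in which CYP97 enzymes act at a later step, had 99.0 and 97.1 in pollen against 686 in seedlings. It was above the floor on all 3 arrays and 7.0-fold lower in pollen (log2 difference -2.64, limma adjusted p = 0.00203). It was called lower at every scaling tried, with a log2 difference of -4.83 under spike scaling and -2.09 under 75th percentile scaling. Under spike scaling 66.6% of all tested probe sets were called lower. In the list for cutin, suberin and wax, 1 of 35 names was measured. This was WSD1, a wax ester synthase, with 7.49 and 25.4 in pollen against 9.97 in seedlings, all under the floor and not tested. With at most 2 measured genes a list, these values describe single genes and not their pathways.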

How the data were processed

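The authors deposited 1 linear MAS5 intensity per probe set and array, per the submitters' processing notes, and the series text adds GCOS and Excel. The deposited table holds 22810 probe sets, of which 64 are array controls, and the arrays already had equal 2% trimmed means. Genes were named through the platform annotation (13513 probe sets with 1 gene, 503 with several, 8730 not listed) and the TAIR10.1 reference gene table, used for names only, since no genome build is given in the sources used here. Signals were scaled again to equal 2% trimmed means, and log2(signal + 14.7) was taken, the offset being the 30th percentile of all signals. A probe set was tested when above 42.3, the pooled median, in seedlings or on both pollen arrays. Testing used limma 3.58.1 in R 4.3.3 (lmFit, eBayes with trend, two-sided, Benjamini-Hochberg, threshold 0.05). The fit was also run on simulated arrays drawn from the pollen means and spread, which cannot check the spread of the seedling signal. With 1 residual degree of freedom, the spread of the seedling signal was taken to equal that of pollen. A second rule without a test asked for a 10-fold difference on both pollen arrays. The number of arrays limits the precision. Every gene that met the symbol rule was to be named, with up to 3 called genes of each pathway list in each direction; measured list genes that were not called are also named. A search for genes of similar pattern was set for called members only and was not run. Members and lists were chosen with earlier results of these data known. The name LCR was left out, since it belongs to another gene in the tables. FAR1, LOG2, MS2 and DRL1 were not matched, since each name is shared by several genes. Names absent from the reference table were not matched either. All of these names stay in the list sizes.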

Additional observations from a re-analysis of the deposited data

How the results depend on the processing

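The CYP51G2 difference of 1.36 kept its direction and did not pass under quantile normalisation (1.56), without the offset (2.07) and without the filter (1.36, adjusted p = 0.186). It passed under 75th percentile scaling (1.70), where 1 member, CYP51G2, was called higher, as were 30.1% of tested probe sets, and turned to -0.18 under spike scaling. With the floor at the highest control without a target (65.7) it was not tested. Left with 1 pollen array, it was between 1.28 and 1.44, a value with no test, and the limma counts could not be had. It has 1 probe set, so averaging probe sets changed nothing. Over all probe sets, 3279 were called higher and 4692 lower (41.1% of calls higher), against 1423 and 11861 (10.7%) under spike scaling and 4316 and 3806 (53.1%) under 75th percentile scaling. The cause was not tested. No paired analysis was possible because the seedling group has 1 array. Signal near the controls limits what can be read from CYP51G2.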
